A study of Mus musculus with 24 samples.

Results

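The genes described here are the 84 mouse genes for proteins of the cytosolic ribosome that were counted in CD11b+ myeloid cells sorted from tumours of MC38, a mouse colon carcinoma line. They were chosen by name: protein-coding genes called Rpl or Rps followed by a number, or Rplp0, Rplp1, Rplp2 or Rpsa, without the Rps6k kinases and without pseudogenes. Of 86 such genes, 84 had at least 10 counts in at least 3 Input libraries, among 16090 genes of any kind that passed the same filter, and Rpl10l and Rpl39l did not. The rule reads names only, though the set was picked with earlier results of these data known. The 84 comprise 34 Rps genes of the small subunit and 50 Rpl genes of the large subunit. The name also takes in Rps19bp1, whose product binds the ribosomal protein RPS19, and Rpl7l1, which encodes an assembly factor related to RPL7. It leaves out genes such as Fau and Rack1, which encode ribosomal proteins under other names.

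MeRIP-seq was run on polyadenylated RNA, giving Input libraries of all fragments and IP libraries of those pulled down for N6-methyladenosine (m6A). WT mice carried Ythdf2 fl/fl without Cre, and cKO mice carried Lyz Cre with Ythdf2 fl/fl, so the floxed allele is shared by all groups and Cre expression marks myeloid cells. All mice were C57BL/6J, 8 to 10 weeks old, with subcutaneous MC38 tumours that were sham treated (Ctrl) or given a dose of 20 Gy once (IR), with cells collected 3 days later. Genotype, treatment and library type give 8 groups of 3 libraries, and each library came from the pooled cells of 5 mice. The study's methods call these replicates technical in one place and biological in another, so errors and p-values below measure the spread between these libraries.

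A ribosome holds 1 copy of nearly every one of these proteins, and a growing cell spends much of its transcription and translation on making them. Most of their mRNAs begin with a cytosine followed by a run of pyrimidines, the 5′ terminal oligopyrimidine (TOP) tract, through which mTOR and LARP1 control their translation together. The mRNAs are short, stable and abundant, and are usually described as poor in m6A, the mark that YTHDF2 binds to promote decay. Several ribosomal proteins also act away from the ribosome: RPL5, RPL11 and RPL23 bind MDM2, the ubiquitin ligase that keeps p53 low.

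Sequence around the start of transcription is shown first, because the pyrimidine tract is the feature that these genes are known to share. RefSeq (GRCm38.p6) gave a start for 64 of the 84 genes. The windows below run from 30 bases before the start to 30 bases after it, on the gene's strand, with the longest unbroken run of C and T in capitals. In Rps27l, where 2 runs of 9 bases tie, the later one is marked. They show genes with some of the longest runs (Rpl34, Rpl27a), the copy Rps27l beside its parent Rps27, the gene with the most counts (Rpsa), and the pair with the smallest rises after irradiation in cKO (Rpl4, Rps2).
Rpl34, chr3:130730308-130730367, minus strand: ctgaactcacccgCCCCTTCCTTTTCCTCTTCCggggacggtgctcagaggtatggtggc
Rpl27a, chr7:109519165-109519224, plus strand: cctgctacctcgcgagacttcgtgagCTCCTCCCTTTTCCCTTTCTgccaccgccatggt
Rps27, chr3:90213619-90213678, minus strand: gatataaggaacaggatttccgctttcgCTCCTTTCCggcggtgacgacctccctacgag
Rps27l, chr9:66946056-66946115, plus strand: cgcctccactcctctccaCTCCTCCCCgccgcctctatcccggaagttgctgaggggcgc
Rpsa, chr9:120127736-120127795, plus strand: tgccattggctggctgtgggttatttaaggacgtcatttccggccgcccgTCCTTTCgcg
Rpl4, chr9:64173357-64173416, plus strand: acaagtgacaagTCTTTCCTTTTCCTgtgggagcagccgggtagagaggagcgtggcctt
Rps2, chr17:24720033-24720092, plus strand: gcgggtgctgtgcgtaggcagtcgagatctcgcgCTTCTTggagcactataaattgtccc

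A run of at least 8 pyrimidines lay in the window of 34 of the 64 genes (53.1%) and of 25.7% of 26961 other genes in the same table. The median longest run was 9 bases in the ribosomal protein genes and 6 bases in the others. It ranged from 3 to 21 bases, with the highest value in Rpl7a and 20 bases in both Rpl34 and Rpl27a. A run is a description of the letters in this window, and its position depends on where RefSeq places the start: in Rps27 the run spans the start itself, whereas in Rpl4 it ends before the start and in Rpsa it begins well after it.

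Sequencing depth was even, with gene counts of 65180075 to 83661576 per Input library and 68846321 to 86421888 per IP library. Input replicates of a member differed by a median coefficient of variation of 2.65%. Levels are given in CPM, counts relative to the library total, which was scaled for later paragraphs but not for the markers here. The sort was reflected in the Inputs: Itgam, which encodes CD11b, lay at 335 to 407 CPM. Cd3e (T cells) stayed at or below 0.0153 CPM and Epcam (epithelium) between 0.385 and 1.22 CPM. Markers of myeloid subsets moved between groups. The summed level of 13 neutrophil genes was 3618 to 3742 CPM in WT Ctrl and 1638 to 1659 in cKO Ctrl, and 832 to 868 in WT IR and 763 to 777 in cKO IR. The 7 monocyte genes summed to 2109 to 2141 CPM in WT Ctrl and 2164 to 2209 in cKO Ctrl, and 1525 to 1576 in WT IR and 1434 to 1462 in cKO IR. The rarer eosinophil and basophil genes (7) went from 28.5 to 28.9 CPM in WT Ctrl and 12.5 to 16.2 in cKO Ctrl down to 3.596 to 3.95 in WT IR and 2.71 to 3.39 in cKO IR, and 8 myeloid progenitor genes from 77.3 to 84.3 and 34.2 to 36.8 down to 22.5 to 24.7 and 17.3 to 17.8 CPM. By contrast, 8 dendritic cell genes summed to 1160 to 1217 CPM in WT Ctrl and 1561 to 1751 in WT IR. In cKO these genes summed to 1250.2 to 1283 CPM in Ctrl and 1649 to 1702 in IR. The sum does not speak for every gene of this list. Cd209a, Siglech and Xcr1 had no counts in any WT IR Input, although all 8 genes had counts in WT Ctrl. Xcr1 also had no counts in cKO Ctrl. The sum of 7 erythroid genes was 27.4 to 29.9 CPM in WT IR and at or below 0.0668 CPM in the other Inputs. The 10 macrophage genes held 4314 to 4977 CPM in all 12 Inputs, although 4 were called higher and 6 lower in cKO IR against cKO Ctrl, and 10 proliferation genes held 785 to 802 CPM in WT Ctrl and 715 to 727 in cKO Ctrl, and 388 to 394 in WT IR and 421 to 423 in cKO IR. In bulk RNA of this kind, fewer cells of a type and less RNA per cell cannot be told apart, and the part of cell composition in the results below was not tested.

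Some libraries went against their labels. Ythdf2 counts over the whole gene were 178 ± 6.05 CPM in cKO Ctrl Inputs and 223 ± 7.25 with IR, against 96.8 ± 1.23 in WT Ctrl and 105 ± 1.51 with IR (SD, n = 3). These counts cover all exons, so they do not show whether the floxed part was lost. Lyz2, at whose locus the Cre is placed, was at 20586 and 20745 CPM in WT Ctrl and WT IR Inputs and at 299.8 and 409 CPM in cKO Ctrl and cKO IR Inputs. In the IP libraries, those labelled WT IR held 89.6 CPM of Lyz2 and those labelled cKO IR held 19700 CPM, the reverse of their Inputs, while both Ctrl IP groups matched theirs. The 6 irradiated IP libraries are therefore named by label, and results on m6A after irradiation are given as the mean of both genotypes, which is the same whichever way these labels are read.

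Levels between genes are compared as Input CPM per kb of merged exon. Rplp1, a protein of the P stalk where translation factors dock, was highest at 1596 CPM per kb, followed by the P stalk base Rplp0 at 986, Rpl26 at 928, Rps23 at 923 and Rpsa at 903. Per kb of the principal transcript the order differed, with Rpl26 highest at 2548 CPM per kb, then Rpsa at 1791, Rplp1 at 1596 and Rps23 at 1249, while Rplp0 was at rank 7 with 1205. Rps23 sits at the decoding centre, and RPSA also serves as a laminin receptor. The lowest values were those of Rps10 (0.214 CPM per kb), Rpl36al (0.260), Rpl24 (0.281), Rpl3l (0.327) and Rpl13a (6.36). Rpl3l is a copy of Rpl3 used in striated muscle, and none of its exon bases overlap another gene. For the other 4, between 53.6% and 71.5% of exon bases also belong to another annotated gene, and HTSeq leaves out reads that fit both, so their low counts do not measure their expression. Copies elsewhere in the genome affect the rest: at least 50% of 100-base windows of the transcript occur elsewhere in 37 of the 84 genes, among them Rps27 (99.6%), Rps6 (94.4%) and Rpl10 (93.9%), whereas genes such as Rpl22, Rps3, Rps27l, Rps19bp1 and Rpl3l had none.

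The ribosomal protein genes together took 5.32, 5.44 and 5.47% of gene counts in the cKO IR Inputs and 3.76, 3.73 and 3.75% in cKO Ctrl. The WT values were 3.79, 3.83 and 3.79% in Ctrl and 3.93, 3.56 and 3.81% after IR. Each cKO IR library lay above each of the other 9 Inputs. The group means were 5.41 ± 0.0785% in cKO IR, 3.75 ± 0.0165% in cKO Ctrl, 3.77 ± 0.191% in WT IR and 3.80 ± 0.0249% in WT Ctrl (SD, n = 3), a 1.44-fold difference between the cKO groups. An exact two-sided permutation test of cKO IR against cKO Ctrl gave p = 0.1, the smallest value that 3 against 3 libraries allow, and WT IR against WT Ctrl gave an exact p of 0.9. In the IP libraries the order was different: 3.66 ± 0.0954% in WT Ctrl, 3.43 ± 0.0280% in cKO Ctrl, 2.89 ± 0.0169% in those labelled cKO IR and 2.75 ± 0.0363% in those labelled WT IR. Transcripts of the mitochondrial genome took 3.54% of Input counts in cKO IR and 5.45% in cKO Ctrl, and 6.69% in WT IR and 4.69% in WT Ctrl. Without them the shares of the ribosomal protein genes were 5.61, 3.96, 4.03 and 3.99% in the same order.

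**Figure D1:**
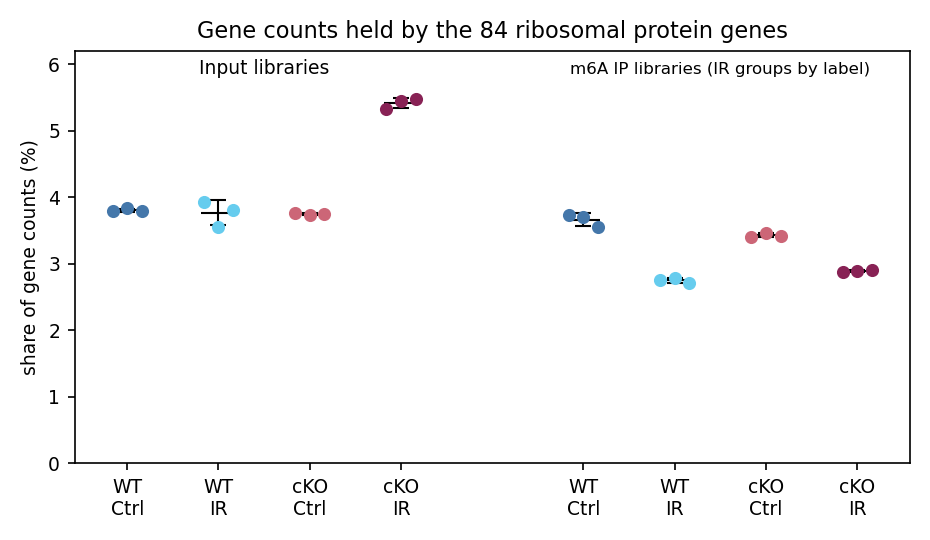
Share of gene counts held by the 84 ribosomal protein genes (percent, y axis) in each of 12 Input and 12 m6A IP libraries. Points are libraries, and bars give the mean and SD of 3. In Input RNA the cKO IR libraries sit between 5.32 and 5.47%, above all others, while in IP RNA both irradiated groups, named by label, lie below both Ctrl groups.

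Most of these genes were not called as changed by irradiation of WT mice. By edgeR's quasi-likelihood test with Benjamini-Hochberg adjustment over 16090 genes, called at an adjusted p under 0.05, 9 of 84 rose from WT Ctrl to WT IR and 6 fell, against 14.7% and 17.0% of all genes tested. The median log2 difference of the 84 was 0.01, with quartiles of -0.04 and 0.09. Neither count stood above the background in this fit.

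Rps27l stood out. It encodes a close relative of RPS27 and is a known p53 target. Its Input level was 50.01, 47.3 and 53.0 CPM in WT Ctrl and 62.0, 68.4 and 66.1 CPM in WT IR, so the groups did not overlap, and the rise was 1.31-fold (95% interval 1.23 to 1.39, adjusted p = 1.5e-06). Other rises without overlap were small, among them Rps19 by 0.14 on the log2 scale, Rpl23 by 0.13, Rps20 by 0.11 and Rpl17 by 0.11. Rps26 (0.21), Rpl41 (0.14) and Rpl15 (0.12) were called higher with overlapping libraries. Genes that fell without overlap were Rpl7l1 (-0.17), Rps2 (-0.15), Rpl8 (-0.11), Rps27a (-0.10) and Rpl3 (-0.10), and Rps19bp1 (-0.22) fell with overlapping libraries. RPS27A is made as a fusion with ubiquitin, and the call of Rps27a was lost in 13 of 21 alternatives, among them each WT Ctrl library left out. The calls of Rpl17 and Rps20 were lost in 3 alternatives each, and those of Rpl23, Rpl8 and Rpl3 in 1 each, which for Rpl8 (-0.02) and Rpl3 (-0.04) was the setting with length offsets described below.

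The WT IR replicates spread more than those of any other Input group. Replicate 1 was the highest of the 3 for 46 of the 84 genes and replicate 2 the lowest for 58. Rplp0, for example, was at 1759, 1259.9 and 1451 CPM in WT IR, against 1516, 1575 and 1458 CPM in WT Ctrl. Without WT IR replicate 1 the counts became 18 higher and 22 lower, without replicate 2 the number called higher was 19, and without replicate 3 it was 5. The share of all genes called was not counted in these refits, so these numbers have no background beside them. The counts for this comparison thus depend on which library is left out, and Rps27l alone exceeded a log2 difference of 0.25 among the genes called.

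Without irradiation the genotypes were close. In cKO Ctrl against WT Ctrl, 1 of 84 genes was called higher, against 8.05% of all genes, and 1 was called lower, against 7.61%, with a median log2 difference of -0.01. Rpl35a was at 166, 171 and 167 CPM in cKO Ctrl and 153, 156 and 158 CPM in WT Ctrl, a log2 difference of 0.11 (adjusted p = 0.026). Rps2 was at 452, 444 and 462 CPM in cKO Ctrl and 494, 504 and 477 CPM in WT Ctrl, 0.92-fold (adjusted p = 0.030). Libraries of the groups did not overlap for either gene. Both calls rest on full replication: without WT Ctrl replicate 1 or 2, or cKO Ctrl replicate 1 or 2, the counts were 0 and 0, and without WT IR replicate 1, which shares the estimate of spread, they were 2 and 5. Without cKO Ctrl replicate 3 there were 0 higher, and without WT IR replicate 2 there were 3 lower. For these refits too, the share of all genes called was not counted. Rpsa had -0.17 (adjusted p = 0.090), with all cKO Ctrl libraries below all WT Ctrl libraries.

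Irradiation of cKO mice went with higher counts of nearly all of these genes. Of 84, 80 were called higher in cKO IR than in cKO Ctrl and 0 lower, against 21.8% of all genes higher and 23.8% lower. The median log2 difference was 0.55, or 1.46-fold, while the median of all genes tested was 0.01. All 3 cKO IR libraries lay above all 3 cKO Ctrl libraries for 81 genes, a pattern shown by 27.2% of all genes. Rps genes had a median of 0.57 and Rpl genes of 0.51. The 4 genes not called were Rpl3l, Rpl24, Rpl36al and Rps10, which are the ones with under 1 CPM.

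**Figure D2:**
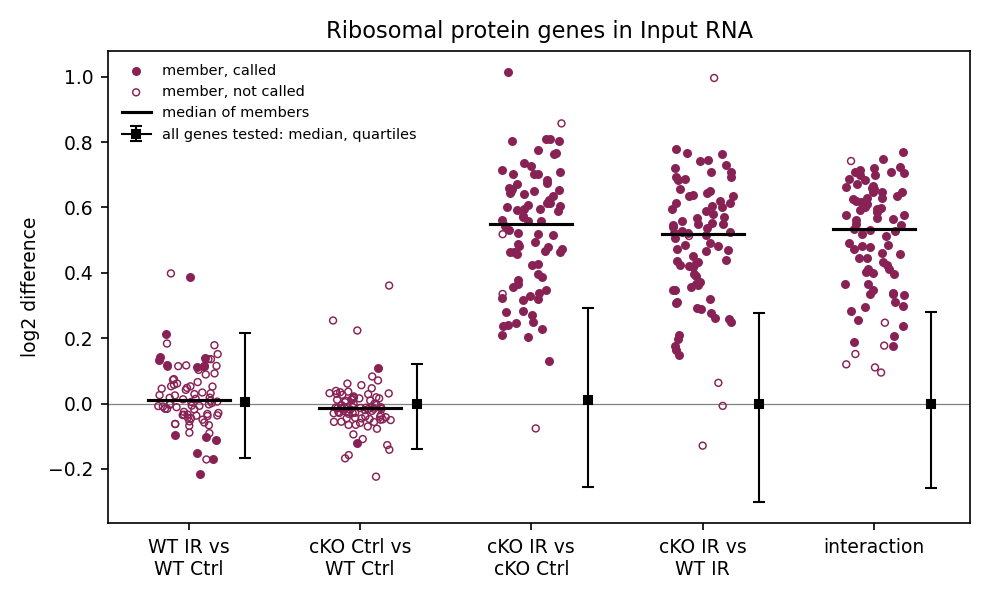
Log2 differences (y axis) of the 84 ribosomal protein genes in 4 Input comparisons and in the interaction of genotype and irradiation. Filled points passed edgeR's test, open points did not, the line is the median of the 84 and the square with bars gives the median and quartiles of 16090 genes. The 84 genes lie around 0 in WT IR against WT Ctrl and around 0.55 in cKO IR against cKO Ctrl.

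The largest rise was again that of Rps27l, from 53.0, 51.8 and 54.3 CPM in cKO Ctrl to 109, 106 and 107 CPM in cKO IR, which is 2.02-fold (95% interval 1.897 to 2.15, adjusted p = 1.1e-12). The cKO IR libraries also lay above the highest WT IR library. Its parent Rps27 rose 1.75-fold, the retrogene copy Rps27rt 1.74-fold and Rpl17 1.75-fold. Rps27rt is a single-exon copy whose windows occur elsewhere for 76.0% of its length, so its counts and those of Rps27 are uncertain.

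Rpl34, which carries 1 of the longest pyrimidine runs shown above, was at 473, 466 and 471 CPM in cKO Ctrl and 794, 826 and 839 CPM in cKO IR, a 1.74-fold rise (adjusted p = 2.2e-12). In WT it was at 457, 468 and 455 CPM in Ctrl and 508, 444 and 479.9 CPM in IR, where the libraries overlapped. Rpl41, the shortest ribosomal protein, rose 1.71-fold, Rps24 rose 1.70-fold and Rps19 rose 1.70-fold. RPS19 and RPS24 are both among the proteins mutated in Diamond-Blackfan anaemia.

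Rises differed in size across the set, from 0.13 to 1.01 on the log2 scale among genes called. The smallest of those called were those of Rps2, at 452, 444 and 462 CPM in cKO Ctrl and 479.8, 496 and 511 CPM in cKO IR (1.10-fold, adjusted p = 0.0058), of Rpl4, at 979, 979.8 and 949 against 1104, 1129 and 1113 CPM (1.15-fold), and of Rps4x, at 483, 490.5 and 475 against 553, 573 and 552 CPM (1.16-fold). The libraries of these 3 genes did not overlap between the groups either. Over the 84 genes, Spearman's rho of the log2 difference was -0.25 with transcript length, -0.13 with mean Input level and -0.12 with the share of windows found elsewhere. For the 64 genes with a start, rho with the length of the pyrimidine run was 0.15, and the median difference was 0.60 with a run of at least 8 bases and 0.55 without. These values share libraries and are given without a test.

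**Figure D3:**
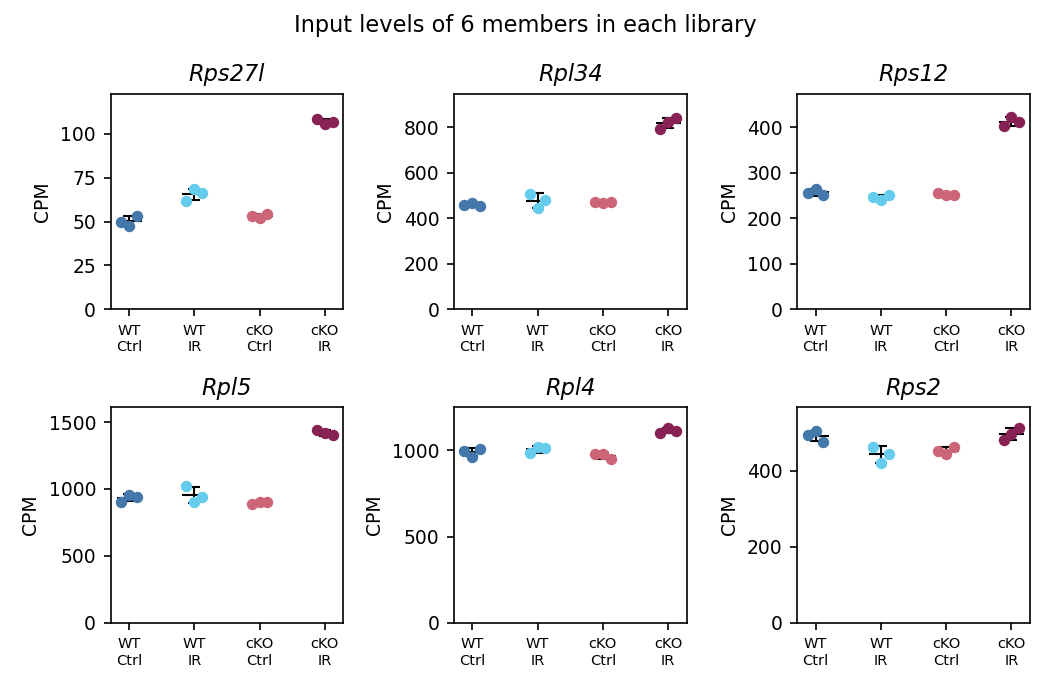
Input CPM (y axis, from 0) of Rps27l, Rpl34, Rps12, Rpl5, Rpl4 and Rps2 in each of 12 Input libraries, with mean and SD of 3. The cKO IR libraries lie above the other groups in the first 5 panels, by 2.02-fold over cKO Ctrl for Rps27l but by 1.15-fold for Rpl4, and Rps2 overlaps WT Ctrl.

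Transcript length moved with this comparison. The 84 genes had a median transcript of 767.5 bases, against 2832 bases for the other protein-coding genes tested. Among those other genes the median log2 difference of cKO IR against cKO Ctrl was 0.39 for the 200 of up to 600 bases, 0.32 for the 666 of 601 to 1000 bases, 0.20 for the 1350 of 1001 to 1500 bases, 0.01 for the 3039 of 2001 to 3000 bases and -0.20 for the 2177 over 5000 bases. The ribosomal protein genes in the first 3 of these classes had medians of 0.62 (28 genes), 0.50 (35 genes) and 0.46 (13 genes), higher than the others in each. In WT IR against WT Ctrl the trend ran the other way and was weaker, from -0.10 in the shortest class to 0.06 in the longest.

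When each library was offset by the level of other protein-coding genes of the same length, a setting chosen after seeing the data, 61 of the 84 genes were called higher and 1 (Rps2) lower in cKO IR against cKO Ctrl, with a median of 0.23. In that fit 24% of 12822 protein-coding genes were called higher and 24.7% lower. Of the 80 genes called without the offsets, 9 turned in sign. Rps27l kept 0.68, Rps24 0.67, Rps15a 0.84, Rpl5 0.60 and Rpl34 0.47, while Rpl10 (-0.06), Rps4x (-0.05), Rpl8 (-0.05) and Rps28 (-0.05) were near 0 and no longer called. The value of Rps15a depends on an annotated transcript of 5130 bases, far longer than its coding sequence. Those of Rpl5 and Rps24 likewise depend on annotated transcripts of 2045 and 1613 bases, against a median of 767.5 for the 84 genes. WT IR against WT Ctrl gave 35 higher and 2 lower with these offsets, against 18.2% and 19.7% of protein-coding genes, with a median of 0.09, so the number called higher stood above the background in this setting. Transcript length here stands for whatever differs between short and long mRNAs in these libraries, including fragmentation and size selection, and the part of each was not tested.

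**Figure D4:**
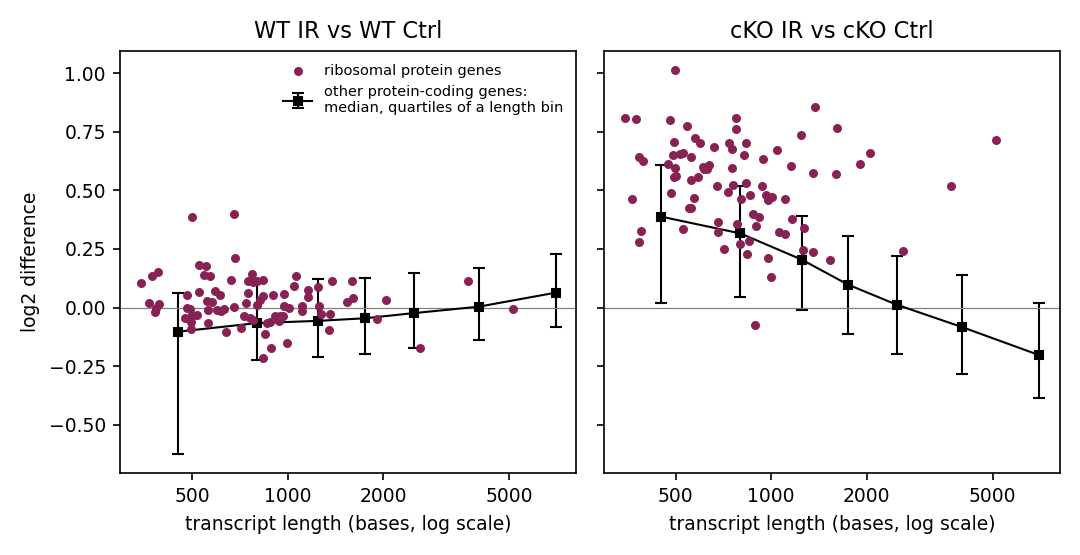
Log2 difference (y axis) against transcript length in bases (x axis, log scale) for WT IR against WT Ctrl and cKO IR against cKO Ctrl in Input RNA. Points are ribosomal protein genes, and squares with bars are medians and quartiles of other protein-coding genes in 7 length classes. In cKO the other genes run from 0.39 in the shortest class to -0.20 in the longest, while the ribosomal protein genes have medians of 0.62 and 0.50 in the 2 shortest classes.

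Between the irradiated genotypes, 79 of 84 genes had higher counts in cKO and 0 had lower, against 23.9% and 23.8% of all genes, with a median of 0.52 (1.43-fold). This comparison shares the cKO IR libraries with the one above. Libraries did not overlap for 80 genes, against 26.0% of all genes. The largest differences among genes called were in Rpl34 (0.78, SE 0.04), Rpl35a (0.77, SE 0.03), Rps27 (0.76, SE 0.04), Rps12 (0.74, SE 0.03), Rps15a (0.74, SE 0.03) and Rps25 (0.73, SE 0.04). Rps26, with 590.0, 722 and 749 CPM in WT IR and 707, 717 and 731 CPM in cKO IR, was not called (0.06, adjusted p = 0.42). With length offsets the counts were 44 higher and 10 lower, against 21.2% and 21% of protein-coding genes, with a median of 0.10. In the IP libraries alone, those labelled cKO IR against those labelled WT IR had 39 genes higher, against 17.0% of all genes, and 4 lower, against 18.8%, with a median of 0.10. Since Lyz2 ran against these labels, the direction is uncertain: with the labels exchanged the 39 would be lower and the 4 higher.

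The interaction, which tests whether irradiation changed a gene by a different factor in cKO than in WT, was positive and called for 77 of 84 genes, against 15.0% of all genes, and negative and called for 0, against 15.2%. The median was 0.53. Rps12, a small subunit gene linked to cell competition in flies, had the largest interaction at 0.77 (SE 0.05, adjusted p = 6.0e-10). Its levels were 402, 422 and 411 CPM in cKO IR and 255, 250 and 251 CPM in cKO Ctrl, against 247, 239 and 250 CPM in WT IR and 255, 264 and 251 CPM in WT Ctrl. Next came Rpl34 (0.75), Rps24 (0.72), Rps15a (0.72), Rps14 (0.71), Rps27a (0.71), Rps18 (0.71) and Rps27 (0.71). The genes not called were Rpl3l, Rpl22l1, Rps29, Rpl36al, Rpl24, Rps26 and Rps10. With length offsets 36 genes were called higher and 1, Rps26, lower, against 11.6% and 10.1% of protein-coding genes, with a median of 0.15, and Rps27l (0.20, adjusted p = 0.051) was not called.

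Copies and their parents are given side by side. Rps27l, with no window shared elsewhere, had 2.02-fold in cKO IR against cKO Ctrl and Rps27 1.75-fold, and in WT the values were 1.31-fold and 1.07-fold, with Rps27 not called (adjusted p = 0.077). Rpl22l1, which can replace RPL22, was at 19.2, 19.7 and 17.9 CPM in cKO Ctrl and 27.3, 25.02 and 23.97 CPM in cKO IR (1.34-fold, adjusted p = 0.00026), beside 1.53-fold for Rpl22. With length offsets Rpl22l1 had a log2 difference of 0.09 and was not called. Rpl7l1 fell in WT IR (0.89-fold) and rose in cKO IR (1.18-fold), beside 1.03-fold, not called, and 1.30-fold for Rpl7. Rpl3l and Rpl36al had under 1 CPM in all Inputs. Differences between a copy and its parent were not tested.

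Rpl5, Rpl11 and Rpl23, the 3 genes listed here for the binding of their products to MDM2, were called higher in cKO IR against cKO Ctrl. Rpl5 went from 887, 902 and 904 to 1439, 1417 and 1400.1 CPM (1.58-fold), while Rpl11 rose by 1.44-fold and Rpl23 by 1.25-fold. With length offsets Rpl23 had a log2 difference of 0.06 and was not called. In WT, Rpl23 alone of these was called, at 1.10-fold. The P stalk genes rose in cKO IR, as 80 of the 84 did, Rplp1 by 1.51-fold, Rplp0 by 1.49-fold and Rplp2 by 1.40-fold, and none of them was called in WT IR. Of the ribosomal proteins named outside the rule, Fau (0.66) and Rack1 (0.49) were called higher in cKO IR against cKO Ctrl and neither in WT IR.

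Other genes of the pathway were counted for comparison, beside 21.8% of all genes higher and 23.8% lower in cKO IR against cKO Ctrl, and 14.7% and 17.0% in WT IR against WT Ctrl. Of 20 other mRNAs of the TOP class, 12 were higher and 4 lower in cKO IR against cKO Ctrl (median 0.36), with Eef1b2 (0.71), a subunit of the elongation factor that reloads GTP, and Gas5 (0.62), a noncoding host of small nucleolar RNAs, the largest. Of 48 ribosome assembly factors and RNA polymerase I genes, 8 were higher and 20 lower (median -0.10), led by Polr1a (-0.75) and Rrp12 (-0.60). In WT IR 27 of these 48 fell and 1 rose (median -0.17). A list of 17 genes held regulators of ribosomal protein synthesis and also the p53 targets Cdkn1a and Mdm2. Of these 17, 4 were higher and 8 lower in cKO IR: Cdkn1a (1.06) and Mdm2 (0.62) rose, and Myc (-0.64) and Larp1 (-0.53) fell. In WT IR Cdkn1a (1.19) and Mdm2 (0.55) rose and Myc (-0.59) fell as well. Genes for the mitochondrial ribosome, which share no subunits with the cytosolic one, had 61 of 77 higher and 0 lower in cKO IR (median 0.30), and 1 higher and 22 lower in WT IR (median -0.11). These lists were not counted with length offsets, and the part of transcript length in them was not tested. In cKO IR against cKO Ctrl, 53.5% of other protein-coding genes of up to 600 bases were higher. The value was 54.2% for those of 601 to 1000 bases.

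In the m6A IP, most ribosomal protein genes were below their Input level. IP over Input was computed in 1 fit of 24 libraries over 17373 genes and is relative to the typical gene, so a log2 value of 0 means the average recovery. In WT Ctrl 23 of 84 genes were higher in IP, against 38.1% of all genes, and 57 were lower, against 37.5%, with a median of -0.32. In cKO Ctrl 19 were higher, against 37.8%, and 57 lower, against 36.0%, with a median of -0.45. Library totals without TMM scaling gave weaker values, with medians of -0.11 in WT Ctrl and -0.19 in cKO Ctrl. In the same order, 30 and 29 genes were then higher, and 43 and 45 lower. The share of all genes called was not counted with unscaled totals, so these counts have no background beside them. With TMM scaling, 73 of 77 mitochondrial ribosomal protein genes (median 0.96) and 38 of 48 assembly factors (median 0.74) were higher in IP in WT Ctrl.

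The lowest IP over Input in WT Ctrl belonged to Rpl10, the protein that completes the large subunit, with 259.8, 261 and 253 CPM in IP against 799.7, 765 and 818 CPM in Input (-1.62, SE 0.04). Rplp0 (-1.32), Rps20 (-1.17) and Rps14 (-1.04) were also among the lowest, and the other P stalk genes had -0.59 (Rplp1) and -1.01 (Rplp2). The highest were Rpl3l (2.35), Rpl36al (2.23) and Rps19bp1 (2.02), of which Rpl3l and Rpl36al rest on few counts. Rps19bp1 had 137, 135 and 122 CPM in IP against 32.5, 33.7 and 30.7 CPM in Input. Rpl29, a gene with more counts, had 0.81. The libraries of IP and Input did not overlap for any of the genes given here by library. With length offsets 10 were higher, against 41.1% of 13327 protein-coding genes, and 69 lower, against 41.3%, in WT Ctrl (median -0.67), since other genes of the same short length had a median of 0.36 to 0.41.

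After irradiation the 84 genes were lower still in IP over Input. As the mean of both genotypes, 6 were higher, against 40.1% of all genes, and 75 lower, against 40.2%, with a median of -1.01. The change from Ctrl to IR was called lower for 81 of 84 genes, against 23.1% of all genes, and higher for 0, against 25.3%, with a median of -0.59. This ratio has the Inputs in it, where the mean of both IR groups stood above the mean of both Ctrl groups by a median of 0.28. The IP libraries on their own had a median of -0.31 between the same groups, with 82 genes lower and 0 higher. Of 17373 genes tested there, 4833 were lower and 4733 higher.

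The gene with the largest change was Rpl41 (-0.99), followed by Rpl36al (-0.95, on few counts), Rpl34 (-0.89), Rpl36 (-0.86) and Rpl35 (-0.85). Rpl34 had 265, 249 and 254 CPM in the WT Ctrl IP and 194, 199 and 195 CPM in the cKO Ctrl IP, then 157, 160.3 and 156 CPM in the IP labelled WT IR and 158, 170.3 and 167 CPM in the IP labelled cKO IR. All 6 irradiated IP libraries were below all 6 Ctrl IP libraries. The smallest changes were those of Rpl4 (-0.24), Rps4x (-0.24) and Rpl10 (-0.30). Rpl4 and Rps4x were also among the genes that rose least in Input in cKO. Other short genes moved the same way: the median change was -0.43 for other protein-coding genes of up to 600 bases and 0.29 for those over 5000 bases. With length offsets 70 of the 84 were lower, against 27.4% of protein-coding genes, and 1 higher, against 27.7%, with a median of -0.25.

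Between unirradiated genotypes, IP over Input was lower in cKO for 42 of 84 genes, against 12.5% of all genes, and higher for 2, against 10.1%, with a median of -0.15. The largest falls were in Rps28 (-0.60), Rps14 (-0.54), Rps27 (-0.53) and Rps29 (-0.52), and the rises were in Rps2 (0.17) and Rpl4 (0.15). Over the 84 genes the value had a rho of 0.47 with transcript length, given as a description. With length offsets 36 were lower, against 15.3% of protein-coding genes, and 4 higher, against 12.2%.

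**Figure D5:**
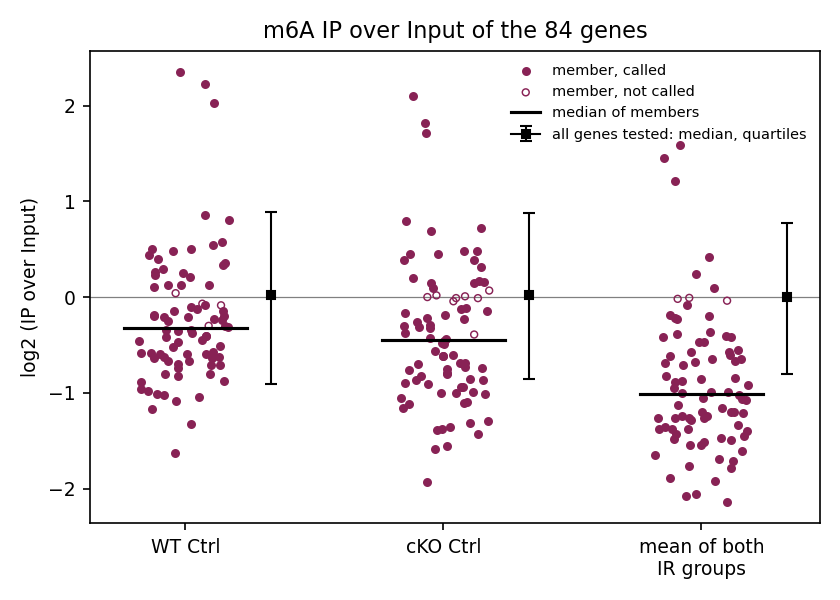
Log2 IP over Input (y axis) of the 84 ribosomal protein genes in WT Ctrl, cKO Ctrl and the mean of both IR groups. Filled points passed edgeR's test, open points did not, lines are medians of the 84 and squares with bars are the median and quartiles of 17373 genes. The median of the 84 is -0.32, -0.45 and -1.01 from left to right.

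Peaks are regions that MACS2 called enriched in IP, and a consensus peak here is a region called in all 3 libraries of a group. Consensus peaks lay in 22 of the 84 genes in WT Ctrl (26.2%, against 34.8% of 12822 protein-coding genes) and in 13 genes in cKO Ctrl (15.5%, against 32.4%). In the libraries labelled WT IR they lay in 3 genes (3.57%, against 29.8%), and in those labelled cKO IR in 2 genes (2.38%, against 26.3%). By library, 26 to 30 genes had a peak in WT Ctrl, 14 to 25 in cKO Ctrl, 7 to 17 in those labelled WT IR and 2 to 3 in those labelled cKO IR. All 22 genes had a peak in WT Ctrl, 13 had one in both Ctrl groups, 19 in Ctrl groups only, and none in irradiated groups only. Rpl36al and Rps19bp1 had one in all 4 groups and Rpl5 in 3. Leaving out a library labelled WT IR gave 4 to 6 genes in that group in place of 3.

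Enrichment was modest. The authors' fold over background, as the mean of 3 libraries, was 1.31 to 3.40 for the consensus peaks in genes other than Rps19bp1, a gene in which a peak in coding sequence reached 9.09-fold in WT Ctrl, 11.2-fold in cKO Ctrl and 7.83-fold in the libraries labelled WT IR. In those labelled cKO IR its consensus peak lay beyond the stop codon, at 2.31-fold. Rpl12 (2.58-fold in WT Ctrl, 3.40-fold in cKO Ctrl, but 1.95-fold there without replicate 3), Rpl13 (2.70-fold), Rpl7l1 (2.62-fold in cKO Ctrl) and Rpl27 (2.60-fold) followed, all with the summit outside the exons of the principal transcript. Only Rps19bp1 had consensus peaks of at least 4-fold.

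The genome sequence 30 bases to either side of a summit in coding sequence is shown on the gene's strand (GRCm38), with GGAC and AGAC, forms of the motif that the m6A methyltransferase favours, in capitals. The windows are those of Rps19bp1, the strongest peak, Rpl36al, present in all groups, and Rpl7a, Rpl35 and Rps2, which hold the motif.
Rps19bp1, cKO Ctrl, chr15:80264087-80264147, minus strand: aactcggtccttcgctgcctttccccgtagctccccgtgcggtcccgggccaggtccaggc
Rpl36al, WT Ctrl, chr12:69182946-69183006, minus strand: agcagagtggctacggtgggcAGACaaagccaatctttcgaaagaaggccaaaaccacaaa
Rpl7a, WT Ctrl, chr2:26911392-26911452, plus strand: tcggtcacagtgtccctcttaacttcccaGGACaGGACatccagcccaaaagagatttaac
Rpl35, WT Ctrl, chr2:39001720-39001780, minus strand: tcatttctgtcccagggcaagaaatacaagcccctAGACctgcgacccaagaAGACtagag
Rps2, WT Ctrl, chr17:24720522-24720582, plus strand: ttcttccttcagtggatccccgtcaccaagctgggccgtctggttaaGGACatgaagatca

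Of 15 such windows, 1 for each gene with a summit in coding sequence, 6 held GGAC or AGAC on the gene's strand, while 36.1% of all windows of 61 bases in exons of the 84 genes did. These are unlike, because 9 of the 15 summit windows include intron bases, 5 of them with the motif. Of the 6 that lay within 1 exon, 1 held it. In Rps19bp1 the window held neither form.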

How the data were processed

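MeRIP-seq libraries of CD11b+ cells comprised 12 Input and 12 IP libraries, 3 in each of 8 groups taken from the labels. The deposited gene counts were made by the authors with Trimmomatic (0.39 in the submitters' processing notes), HISAT and HTSeq on mm10 with GENCODE annotation, strand-aware, and are raw counts per gene. Reads in no feature (2.86 to 6.55% by library), in several features (2.19 to 2.58%) or aligned to several places (3.34 to 3.83%) were left out. The deposited peak files hold, for each library, the MACS2 score, the fold enrichment and the −log10 of p and q as the authors' peak caller gave them, with SAMtools and bedtools (2.26.0) also named. The control library of each peak call is not given in the sources used here.

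Genes that reached 10 counts in 3 or more libraries were tested with edgeR 4.0.16 (quasi-likelihood, TMM scaling, R 4.3.3), in 1 fit of the 12 Inputs with a mean for each group and 1 fit of all 24 libraries, without a replicate block. P-values were adjusted by Benjamini-Hochberg over all genes tested and called under 0.05. Shares of counts were compared by exact two-sided permutation tests. CPM values are scaled by TMM within each fit, so those of the 12 and of the 24 libraries differ slightly. Levels of cell type markers are the exception and were not scaled by TMM. Gene identifiers of 54409 of 54446 rows matched the annotation used here. Consensus peaks are regions shared by all 3 libraries of a group. Promoter windows came from RefSeq and summit windows from the GRCm38 genome.

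Members and gene lists were chosen with earlier results of these data known. Genes were named by rule. In each Input comparison these were up to 8 with the largest rise and up to 8 with the largest fall among genes called without overlap. Added to them were copies with their parents, the 5 highest and 5 lowest by level, and the 12 strongest genes with consensus peaks. The 5 highest and 5 lowest by IP over Input, the P stalk genes, and Rpl5, Rpl11 and Rpl23 were named as well. Other genes given as examples were chosen after their values were seen. On simulated counts for WT IR against WT Ctrl over 16090 genes, 76.0% of genes changed 1.2-fold and 100% of those changed 1.5-fold were recovered. The simulation gave each gene the same spread in all groups and changed only genes above a low level. Real WT IR replicates spread more than the other Inputs, so recovery in that comparison may be lower. Alternatives covered scaling (RLE, library totals), the count filter, DESeq2 1.42.0, a replicate block, libraries in the fit, members with copies, each library left out, mitochondrial counts, peak thresholds and, chosen after seeing the data, offsets in 20 classes of transcript length and the IP libraries alone. No 2 libraries agreed within counting noise (chi-square per degree of freedom 3.53 to 37.6). Results on some genes are not reported here.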

Additional observations from a re-analysis of the deposited data

Results flagged for a closer look

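Some results differed between genotypes or treatments by a test of the difference itself. The interaction of genotype and irradiation in Input was called higher for 77 of 84 ribosomal protein genes, against 15.0% of all genes tested, and for 36 with length offsets (median 0.15). Without offsets it had the largest values in Rps12 (0.77 on the log2 scale), Rpl34 (0.75), Rps24 (0.72), Rps15a (0.72), Rps14 (0.71), Rps27a (0.71), Rps18 (0.71) and Rps27 (0.71). IP over Input changed between Ctrl and IR, as the mean of both genotypes, with 81 of the 84 called lower, against 23.1%. Between cKO Ctrl and WT Ctrl it was called lower for 42, against 12.5%, and higher for 2, against 10.1%. Dixon's test of single outlying libraries was not run, since each group held 3, and the values without each library are given with the alternatives.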

How the results depend on the processing

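The Input calls of cKO IR against cKO Ctrl, of cKO IR against WT IR and of the interaction kept their direction in every alternative run, except that some genes were called lower with the length offsets. The IP libraries alone, for cKO IR against WT IR, gave the direction only as far as their labels are taken as they stand. With the length offsets, WT IR against WT Ctrl had 35 higher and 2 lower (median 0.087), cKO Ctrl against WT Ctrl 0 and 2, cKO IR against cKO Ctrl 1 lower (median 0.23), cKO IR against WT IR 44 and 10 (median 0.10) and the interaction 36 and 1 (median 0.15). For IP over Input they gave 10 higher in WT Ctrl (median -0.67), 11 in cKO Ctrl (-0.79), a median of -1.09 in IR, 1 higher for IR minus Ctrl (-0.25) and 4 higher for cKO minus WT (-0.094). Of the genes called, 9 turned in sign with the offsets in cKO IR against cKO Ctrl (1 of them then called), 20 in cKO IR against WT IR (9 then called) and 15 in the interaction (0 then called). Examples were Rpl10 (-0.063) and Rps4x (-0.052) in cKO IR against cKO Ctrl, Rpl7 (-0.013), Rpl10 (-0.15), Rpl36a (-0.016), Rps4x (-0.15) and Rpl23 (-0.19) in cKO IR against WT IR, and Rpl10 (-0.17), Rps4x (-0.12) and Rpl23 (-0.14) in the interaction. The offsets are built from other genes of like transcript length, and the cause of that trend was not tested. RLE scaling and DESeq2 both gave IP over Input medians of -0.38 in WT Ctrl, -0.49 in cKO Ctrl and -1.04 in IR. Unscaled totals gave 5 higher in WT IR against WT Ctrl, medians of 0.58 for cKO IR against WT IR and 0.58 for the interaction, and IP over Input medians of -0.11 in WT Ctrl, -0.19 in cKO Ctrl (29 higher), -0.80 in IR (10 higher), -0.62 for IR minus Ctrl and -0.11 for cKO minus WT. Without a filter, WT IR against WT Ctrl had 14 higher and cKO Ctrl against WT Ctrl 2 higher and 5 lower. With at least 50 counts, 82 genes stayed and IP over Input medians were -0.36 in WT Ctrl and -0.49 in cKO Ctrl. The 47 genes with under 50% of windows elsewhere had 3 lower in WT IR, 0 higher and 0 lower in cKO Ctrl against WT Ctrl, 45 higher in cKO IR against cKO Ctrl, 44 against WT IR and 43 in the interaction (median 0.57), fewer because fewer genes were counted. Fits of 6 libraries gave 3 higher in WT IR and 3 higher and 10 lower in cKO Ctrl. Among the alternative fits, the share of all genes called was counted only with the length offsets and for the IP libraries alone. The IP libraries alone gave 39 higher and 4 lower (median 0.10) for cKO IR against WT IR as labelled, and the reverse if the labels are exchanged. Without mitochondrial counts the shares were 5.61% in cKO IR and 3.96% in cKO Ctrl Inputs, and 4.03% in WT IR and 3.99% in WT Ctrl Inputs. Peaks of at least 4-fold left 1 gene in WT Ctrl, 1 in cKO Ctrl, 1 in the libraries labelled WT IR and 0 in those with the label cKO IR, and peaks in at least 2 of 3 libraries gave 9 in those labelled WT IR.

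Leaving out 1 library at a time gave 5 to 19 higher and 4 to 22 lower in WT IR against WT Ctrl (median -0.0043 to 0.043), 0 to 2 and 0 to 5 in cKO Ctrl against WT Ctrl, medians of 0.48 to 0.56 for cKO IR against WT IR and 0.49 to 0.56 for the interaction, a median of -0.48 to -0.44 for IP over Input in cKO Ctrl, and 4 to 6 genes with a peak in the libraries labelled WT IR. In the fit with a replicate block Rps27a (-0.10) in WT IR against WT Ctrl lost its call, and no count or median moved beyond its limit. Replicate numbers did not pair the libraries: correlations of deviations ran from -0.15 to 0.07 over 18 Input pairs, and 3 of 24 libraries were closest to their own number. Rpl3l rests on few counts, and those of Rps10, Rpl36al and Rpl24 leave out reads shared with another gene.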

Other observations

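Genes of the mitochondrial respiratory chain and ATP synthase were counted beside the ribosomal protein genes. In cKO IR against cKO Ctrl 68 of 83 were higher, against 21.8% of all genes, and 1 lower, against 23.8% (median 0.38), in WT IR against WT Ctrl 3 were higher, against 14.7%, and 26 lower, against 17.0% (median -0.09), and the interaction was called higher for 68, against 15.0%, and lower for 0, against 15.2% (median 0.47). IP over Input fell from Ctrl to IR for 77 of 77 mitochondrial ribosomal protein genes (median -0.52) and for 78 of 85 respiratory chain genes (median -0.51), against 23.1% of all genes lower and 25.3% higher. Assembly factors had 34 of 48 lower and 5 higher (median -0.29). These lists were not counted with length offsets either, and the part of transcript length was not tested. Of the other protein-coding genes, 53.5% of those up to 600 bases were higher in cKO IR against cKO Ctrl. For those of 601 to 1000 bases it was 54.2%. In the same classes the median change of IP over Input from Ctrl to IR was -0.43 and -0.36.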
